A study of Mus musculus with 36 samples.

Results

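Zfp266 and 6 related zinc finger genes (Zfp26, Zfp426, Zfp560, Zfp846, Zfp809 and Zfp810) were followed in mouse cells with and without an edited Zfp266 gene. The genes were picked by name, from the zinc finger genes around Zfp266 on chromosome 9. The rule uses no measured value, but the choice was made with earlier results of these data known. It is not a full set: Zfp599 and Zfp653 lie between the genes picked and were left out. All 7 were found, among 21442 genes of the count table. The comparison asks whether the relatives moved when Zfp266 was lost, either in place of it or along with it.

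Most of these genes encode KRAB zinc finger proteins, a large family of vertebrate DNA binding proteins. An array of C2H2 zinc fingers reads the DNA sequence, and the KRAB domain at the other end of the protein recruits the corepressor TRIM28 (KAP1), which brings histone methylation and silent chromatin. The family is best known for silencing transposable elements in embryonic cells, and its genes sit in clusters that grew by local duplication, so that neighbours often resemble each other in sequence. ZFP809 is the best studied of the 6 relatives: it recognises the tRNA primer binding site of murine retroviruses and helps to silence them in embryonic cells.

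RNA was sequenced in 36 libraries, with 3 replicates in each of 12 groups formed by 6 stages and 2 genotypes. WT and KO denote the genotypes given by the labels. MEFs were passaged fibroblasts, labelled as strain 129, from E12.5 chimeric embryos made by aggregating engineered ESCs with morulae of B6CBAF1 females, carried Cas9 and a doxycycline-inducible Oct4, Sox2, Klf4 and Myc transgene (TNG MKOS), and were taken 96 h after transduction with a lentivirus for a non-targeting (WT) or a Zfp266 guide RNA (KO). Cells at D3, D5 and D7 of reprogramming came from the same kind of MEFs, transduced 24 h before doxycycline was added, mixed with 129 strain MEFs that lack the transgene, grown with 300 ng/ml doxycycline and 10 µg/ml vitamin C, and sorted for the mOrange reporter of the transgene. iPS libraries were single-cell Nanog-GFP+ clones lifted at day 15 and kept without doxycycline in puromycin, and ESC libraries were the WT parental line (Clone J) and KO clones made from it with a guide plasmid. KO libraries of MEFs and of D3, D5 and D7 were therefore populations in which not every cell need carry the same edit, whereas KO iPS and ESC libraries were genotyped clones. The 3 WT ESC libraries are samples of 1 line, so the p-values measure only the spread between the samples of a group, part of which may be technical.

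In GRCm38 the 7 genes lie within 1963 kb of chromosome 9. Zfp266 runs from 20495068 to 20521417 on the minus strand. Zfp560 (20345136 to 20385177), Zfp26 (20428449 to 20460162) and Zfp426 (20468549 to 20492746) follow it on the same strand, and Zfp846 (20581291 to 20605409) lies on its other side on the plus strand. Zfp809 (22225714 to 22243354, plus strand) and Zfp810 (22276748 to 22307648, minus strand) lie farther along the chromosome, with Zfp599 between them. All 7 are protein coding in GENCODE vM21. The longest coding sequence of each held 1 match to a short KRAB box pattern and between 6 (Zfp809) and 22 (Zfp26) matches to the spacing of a C2H2 finger, with 9 in Zfp266, 10 in Zfp810, 11 in Zfp426 and in Zfp846, and 15 in Zfp560. Coding sequences were 64.6% (Zfp810) to 71.2% (Zfp26) identical to that of Zfp266 in a global alignment, and Zfp560 came second with 68.6%.

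Because the family is so alike, it was checked that reads could be told apart. Zfp266 shared no exonic stretch of 75 bases, the read length, with the exons of another gene, and no member shared such a stretch with another member. Of the exonic stretches of Zfp26, 13.7% had a copy elsewhere, nearly all of them through Gm26733, a gene on the opposite strand that overlaps exons of Zfp26 and is not among the genes counted. The share was 1.99% for Zfp560, 0.02% for Zfp846 and 0% for Zfp426, Zfp809 and Zfp810. The library kit keeps the strand, but whether the counting used it is not stated, so Zfp26 counts and reads from Gm26733 cannot be told apart.

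A set of 3 guide RNAs to Zfp266 are described by the study, and their target sites are printed here with the PAM in capitals because they fix what an edit can do to the transcript and whether a relative could be cut too. The third is the one the study marks for its detailed analyses. Whether it was the guide behind each RNA library is not stated.
Zfp266.sgR1: acagcactttccgccacctCGG
Zfp266.sgR2: caattatgccttaacacagAGG
Zfp266.sgR3: cagaagaatctataccgagAGG

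Zfp266.sgR3 lies at chr9:20505088-20505109 on the minus strand of GRCm38, in exon 6 of the 9 exons of transcript ENSMUST00000174462.7, and its cut falls in codon 67 of 604. That is past the start of the KRAB match at residue 43 and before the first zinc finger match at codon 345. The study describes more fingers in ZFP266 than the pattern matched, so the array may begin before that codon. Zfp266.sgR1 (chr9:20502049-20502070, plus strand, exon 7) cuts in codon 100 and Zfp266.sgR2 (chr9:20500366-20500387, minus strand, exon 9) in codon 170. A small insertion or deletion at any of these places leaves nearly the whole exon sequence in the transcript. Read counts over the gene therefore do not check the edit, and the genotype is taken from the labels. For the KO MEFs used for RNA-seq, the study reports a high share of out-of-frame insertions and deletions, from an assay on Zfp266 cDNA.

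The guide marked for detailed analyses had no transcript site with 1 or 2 mismatches. With up to 3 mismatches it matched 3 genes, Zfp266 itself, Exoc1 and N4bp2. In the 6 relatives the closest site carried 6 mismatches (Zfp26 and Zfp560), 7 (Zfp846 and Zfp810) or 8 (Zfp426 and Zfp809). The nearest 2 are printed to show how far they are from the guide.
Zfp26 site: tagaagtttctttaaggagTGG
Zfp560 site: caacggaacctttacagagAGG
Counted from 1 at the 5′ end of the guide, the Zfp26 site differs by C1T, A7T, A8T, A12T, C15A and C16G, and the Zfp560 site by G3A, A4C, A5G, T9C, A12T and C16A. Only transcript sequence was searched, and sites in introns or between genes were not analysed here.

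Total counts ranged from 19224103 (MEF WT replicate 1) to 39610939, with a median of 31644436. No member was at 0 in any library, and the lowest raw counts were 21 reads for Zfp810 and 34 for Zfp560. The other lowest values lay between 101 (Zfp846) and 1304 reads (Zfp266). Stage markers went with the labels: the summed normalised counts of 8 fibroblast genes were 409633 or more in every MEF library and 245 or less in every iPS and ESC library, while 8 pluripotency genes were at 30.8 or less in MEFs and at 104054 or more in iPS cells and ESCs. Dppa4, Utf1 and Fgf4 were at 0 in all MEF libraries. A further 7 markers of leukocytes, endothelial cells and keratinocytes summed to 121 to 14415, highest at D5. MEF KO replicate 3 stood apart from the other MEF libraries in 5 of the relatives and in the fibroblast sum (579314 against 409633 to 454599). The comparison of KO with WT in MEFs and the KO steps from MEFs are given with and without it. The count of log2FC signs, the profiles over groups and the levels per kb include it.

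**Figure D1:**
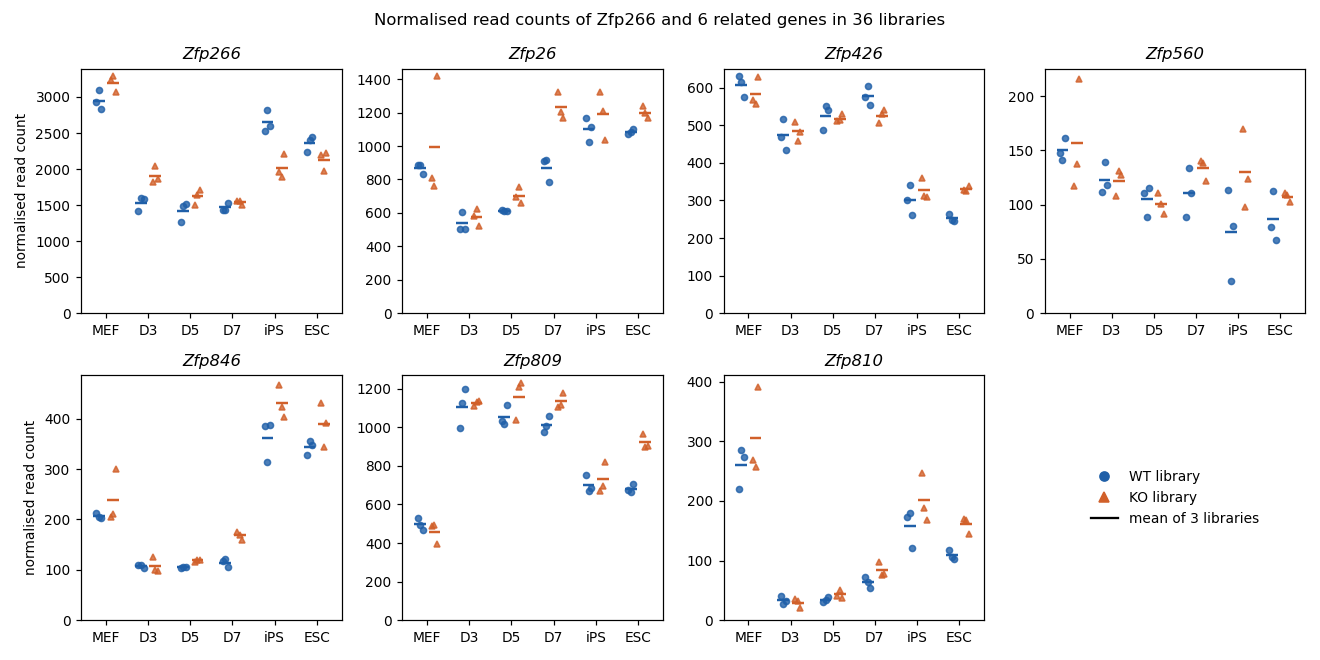
Normalised read counts (counts divided by the size factor of the library, y axis from 0, a scale for each gene) of the 7 genes at the 6 stages, with a blue circle for each WT library, an orange triangle for each KO library and a bar for the mean of 3. Zfp266 is lower in KO than in WT iPS cells, Zfp26 and Zfp846 are higher in KO cells at D7, Zfp426 and Zfp809 are higher in KO ESCs, and MEF KO replicate 3 lies far above the other MEF libraries for Zfp26.

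Zfp266 mRNA was present at every stage in both genotypes. At D3 the WT libraries had 1417, 1598 and 1579.7 normalised counts in replicates 1 to 3 and the KO libraries 1824, 2049.5 and 1856. Every KO library was above every WT library, and no other member showed this, against 16.2% of all genes in either direction. In iPS cells the order was the opposite, with 2529, 2817 and 2594 in WT and 1954, 1892 and 2212 in KO clones, and 19.6% of all genes had groups apart. In ESCs the WT libraries had 2238, 2405 and 2445 and the KO clones 2191, 1969 and 2222, again with no overlap.

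By DESeq2, Zfp266 was higher in KO cells at D3 (log2FC 0.32, SE 0.08, FDR 0.00883) and lower in KO iPS clones (log2FC -0.39, SE 0.07, FDR 9.95e-06), which is 1.25-fold and 0.763-fold of the WT level. Of all genes, 0.374% were higher and 0.493% changed in either direction at D3. The D3 call was lost with edgeR (FDR 0.0834), without WT replicate 1 (log2FC 0.26, FDR 0.175) and without KO replicate 2 (log2FC 0.27, FDR 0.240). The iPS call held in all 11 alternatives tried. Differences did not pass in MEFs (log2FC 0.12, FDR 0.717), at D5 (log2FC 0.19, FDR 0.124), at D7 (log2FC 0.07, FDR 0.578) or in ESCs (log2FC -0.15, FDR 0.197), where the DESeq2 p before adjustment was 0.0427.

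KO effects at different stages were compared by interaction terms. The KO effect on Zfp266 was lower in iPS clones than at D7 by 0.46 on the log2 scale (log2 difference -0.46, SE 0.11, DESeq2 FDR 0.000309), and Zfp266 was the only one of the 7 genes to pass, against 21.9% of all genes tested. At D7 the WT and KO libraries overlapped (1432 to 1535 and 1501 to 1557). The difference between KO effects did not pass for D7 against D3 (log2FC -0.25, FDR 0.105) or for ESC against iPS (log2FC 0.24, FDR 0.281).

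For the 6 relatives, 36 comparisons of KO with WT were made over the 6 stages, and 5 passed, all with higher counts in KO cells. None reached a log2FC of 1 and so none was a DEG by the study's thresholds (FDR < 0.05 and log2FC > |1|), which 0.019% of all genes passed in MEFs, 0.162% at D3, 1.19% at D5, 8.37% at D7, 4.51% in iPS clones and 1.21% in ESCs. Of the 36 log2FC values, 29 were above 0 and 7 below, but values at the same stage share libraries and stages are not independent, so this is a count only. It includes MEF KO replicate 3, without which Zfp26 and Zfp560 in MEFs were below 0 (-0.14 and -0.24). Stage by stage, the counts need to be read against how many genes of the table were called at that stage.

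**Figure D2:**
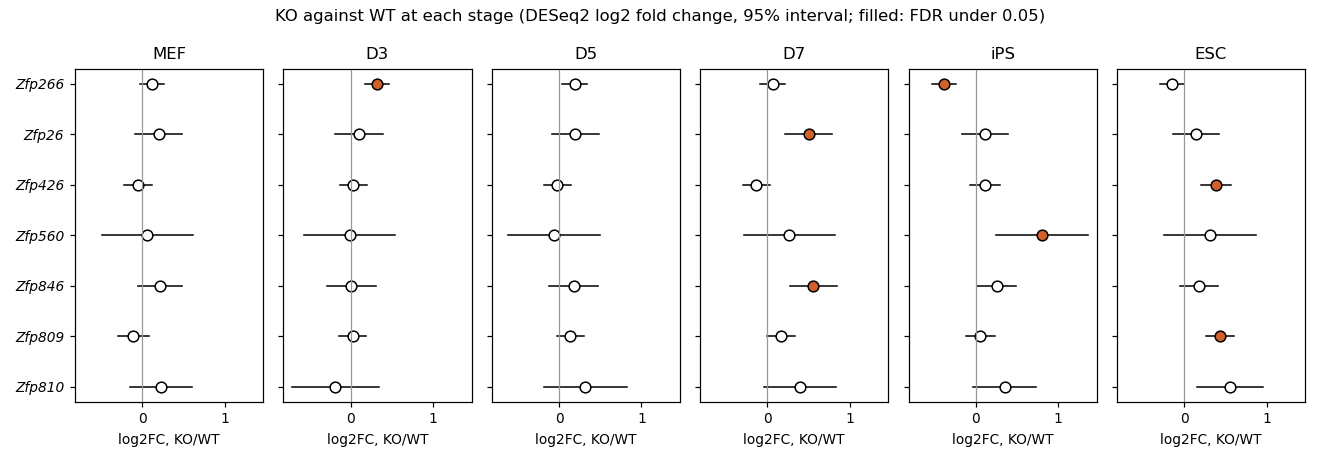
Log2 fold change of KO over WT (x axis) for each of the 7 genes at the 6 stages, from 1 DESeq2 fit of 36 libraries, with 95% intervals and filled points at FDR < 0.05. No point is filled in MEFs or at D5, and all filled points of the 6 relatives lie above 0.

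In MEFs none of the 7 genes passed, where 0.0428% of all genes did. No member had WT and KO libraries that did not overlap, against 12.4% of all genes, and no member had an unadjusted p under 0.05. edgeR called none either. KO replicate 3 stood apart in most relatives. Zfp26 had 889, 889 and 829.9 in WT and 809.9, 764 and 1417 in KO MEFs, so that KO replicate 3 was 1.80 times the mean of the other two. Zfp560 (117, 137 and 216 in KO), Zfp810 (269, 257 and 392) and Zfp846 (204, 211 and 299.8) were highest in the same library, at 1.70, 1.49 and 1.44 times the other two, while Zfp809 was lowest there (491, 493 and 394, 0.801 times). With that library, log2FC was 0.20 for Zfp26, 0.06 for Zfp560, 0.21 for Zfp846 and 0.23 for Zfp810. Without it the values were -0.14, -0.24, 0.01 and 0.01. Zfp266 (0.12 with and 0.15 without it), Zfp426 (-0.05 and -0.11) and Zfp809 (-0.11 and -0.01) moved less, and none of the 7 passed without it.

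At D3 and D5 the relatives gave no call. At D3 the 6 log2FC values ran from -0.19 (Zfp810) to 0.10 (Zfp26), and 0.493% of all genes passed. At D5 they ran from -0.06 (Zfp560) to 0.32 (Zfp810), and 7.15% of all genes passed. By edgeR none of the 7 passed at either day. At D5 the KO libraries of Zfp26 (692, 756 and 661) were all above the WT libraries (618, 609 and 612). Those of Zfp846 (115, 119.6 and 120.2) were too (103, 106 and 105 in WT). Of all genes, 32.3% had groups apart in one direction or the other. The differences of Zfp26 and Zfp846 did not pass (log2FC 0.20, FDR 0.523 and log2FC 0.18, FDR 0.597). The WT libraries of Zfp846 lay close together at this day (SD 1.73 at a mean of 104.8).

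At D7 Zfp26 and Zfp846, which flank Zfp426 and Zfp266 on either side, were higher in KO cells. Zfp26 had 909.8, 918 and 785 normalised counts in WT and 1325, 1206 and 1165 in KO libraries (log2FC 0.50, SE 0.14, FDR 0.00308, DESeq2). Zfp846 had 117, 121 and 105 in WT and 175, 169.8 and 159.8 in KO libraries (log2FC 0.56, SE 0.14, FDR 0.000802, DESeq2). In both genes every KO library was above every WT library, and the KO levels were 1.41-fold and 1.47-fold of WT. Both calls held in all 11 alternatives.

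The 2 calls among 7 genes stand beside 29.4% of all genes called at D7 in either direction and 13.3% called higher. Libraries did not overlap for 5 of the 7 genes, against 47.4% of all genes. With so many genes called at this stage, the counts say nothing particular about these 7. Zfp809 (974, 1007 and 1059.7 in WT, 1106, 1117 and 1180.1 in KO, log2FC 0.16, FDR 0.143) and Zfp810 (72.0, 64.4 and 54.5 and 98.4, 75.3 and 78.1, log2FC 0.39, FDR 0.185) had all KO libraries above WT without passing, though Zfp809 passed when only D7 libraries were fitted (log2FC 0.20, FDR 0.0408). Zfp426 had all KO libraries below WT (574, 605 and 553 and 506, 529 and 539), also without passing (log2FC -0.14, FDR 0.222). Zfp560 overlapped (log2FC 0.26, FDR 0.537).

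Markers of the cell state moved at the same stage. At D7 the 8 pluripotency markers summed to 5591 to 9715 normalised counts in WT and to 25839 to 33905 in KO libraries, and all 8 were called higher. The 8 fibroblast markers summed to 37796 to 46677 in WT and to 12359 to 25795 in KO libraries, and 4 of 8 were called lower. At D7 no marker of either list was at 0. Zfp26 and Zfp846 were themselves higher in WT iPS cells than in WT cells at D7. So were Zfp266 and Zfp810, whose differences between KO and WT at D7 did not pass. Zfp426 and Zfp809 were lower in WT iPS cells, while at D7 all KO libraries lay below WT for Zfp426 and above WT for Zfp809. Zfp560 passed in neither comparison. The part of cell state in the D7 differences was not tested. In a bulk library, more cells of a type and more RNA per cell cannot be told apart.

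In iPS clones 2 of 7 genes passed, Zfp266 (lower) and Zfp560 (higher), against 16.3% of all genes (9.72% higher). Zfp560 had 114, 29.3 and 80.7 normalised counts in WT and 169.7, 98.1 and 123 in KO clones, which overlapped (log2FC 0.80, SE 0.29, FDR 0.0353, DESeq2). The low WT value is replicate 2, with 34 reads. Without that library the call was lost (log2FC 0.42, FDR 0.317). It was also lost without WT replicate 3 (log2FC 0.86, FDR 0.0516), without KO replicate 1 (log2FC 0.57, FDR 0.278) and without KO replicate 3 (log2FC 0.84, FDR 0.0552), with edgeR (log2FC 0.79, FDR 0.0583) and when only iPS libraries were fitted (log2FC 0.78, FDR 0.429). Zfp846 had all KO clones (467, 424 and 403) above all WT clones (386, 314 and 387) and did not pass (log2FC 0.25, FDR 0.134). For Zfp26, Zfp426, Zfp809 and Zfp810 log2FC lay between 0.05 and 0.35 and none passed. The fibroblast marker sum was 191 to 216 in WT and 230.0 to 245 in KO clones, with 1 of 8 markers called higher. Col3a1, Prrx1 and Postn had means under the 2.31 to 5.22 normalised counts that 3 reads make in both genotypes. Col1a2 had means of 2.10 in WT and 23.6 in KO clones, and Twist1 alone was lower in KO clones (76.1 in WT and 52.8 in KO). The pluripotency sum was 104054 to 120762 and 115635 to 130577, with none called. Prrx1 and Postn were at 0 in the WT clones, and the part of these differences in the Zfp266 and Zfp560 calls was not tested.

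In ESCs Zfp426 and Zfp809 were higher in the KO clones, against 10.1% of all genes called (5.82% higher). Zfp426 had 263, 248 and 246 normalised counts in the WT line and 328, 324 and 337 in KO clones (log2FC 0.39, SE 0.10, FDR 0.00179, DESeq2). Zfp809, the retrovirus silencer, had 677, 663 and 708 in the WT line and 966, 896 and 903 in KO clones (log2FC 0.43, SE 0.09, FDR 6.69e-05, DESeq2). These are 1.31-fold and 1.35-fold of the WT level, without overlap between libraries, and both calls held in all 11 alternatives.

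Zfp810 showed a difference of the same kind that fell just short of the threshold. The WT libraries had 118, 106 and 103 and the KO clones 169.7, 168 and 144 (log2FC 0.56, SE 0.20, FDR 0.0569, DESeq2). It passed when only ESC libraries were fitted (FDR 0.0239). Zfp26 (1073, 1082 and 1103 and 1238, 1195 and 1165, log2FC 0.14, FDR 0.594) also had all KO clones above WT, so that 5 of 7 genes, with Zfp266 in the opposite direction, did not overlap, against 33.3% of all genes. Zfp560 (log2FC 0.31, FDR 0.554) and Zfp846 (log2FC 0.18, FDR 0.377) overlapped. WT and KO ESC libraries differed in marker sums as well: the pluripotency sum was 122222 to 130109 in WT and 136885 to 139390 in KO, with none of 8 markers called, and 2 of 8 fibroblast markers, at sums of 143 to 162 and 151 to 242, were called higher. Col3a1 and Postn were at 0 in the WT ESC libraries. Both, and Prrx1, had means under the 2.31 to 5.22 normalised counts that 3 reads make in both genotypes. Twist1 and Prrx1 had lower means in KO than in WT ESC libraries. WT ESC libraries are 1 line and KO libraries are clones, so clonal origin and genotype cannot be told apart in this comparison.

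Averaged over D3, D5 and D7, 3 of 7 genes passed, against 25% of all genes (11.4% higher), and all 3 were higher in KO cells. These were Zfp266 (log2FC 0.19, SE 0.04, FDR 0.000175), Zfp26 (log2FC 0.27, SE 0.08, FDR 0.00975) and Zfp846 (log2FC 0.25, SE 0.09, FDR 0.0195) by DESeq2. Zfp846 did not pass without D3 KO replicate 1 (log2FC 0.21, FDR 0.0780). Zfp809 did not pass (log2FC 0.11, FDR 0.0932), but passed when only D3, D5 and D7 libraries were fitted (FDR 0.0184), without D3 WT replicate 3 (FDR 0.0472) and without D5 KO replicate 1 (FDR 0.0296).

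For none of the 6 relatives was the KO effect shown to differ between stages. From D3 to D7 the nearest was Zfp846 (log2 difference 0.55, SE 0.21, DESeq2 FDR 0.0598), which passed without D3 KO replicate 1 (log2 difference 0.67, FDR 0.0257) and with TMM size factors (FDR 0.0443), while 13% of all genes passed. Zfp26 passed this test when only D3 and D7 libraries were fitted (FDR 0.0142) and not otherwise (log2FC 0.40, FDR 0.201). From iPS to ESC the nearest was Zfp809 (log2 difference 0.38, SE 0.12, FDR 0.0902), which passed without iPS KO replicate 3 (log2 difference 0.47, FDR 0.00778), against 1.47% of all genes. By edgeR no member passed in these 2 comparisons of stages. From D7 to iPS, Zfp560 passed without iPS WT replicate 1 (log2 difference 0.99, FDR 0.0474) and Zfp426 without iPS WT replicate 2 (log2 difference 0.35, FDR 0.0352), and neither passed with all libraries (log2FC 0.54, FDR 0.378 and log2FC 0.25, FDR 0.142). The ESC calls of Zfp426 and Zfp809 are therefore not shown to be absent from iPS clones, where their intervals were -0.07 to 0.29 and -0.12 to 0.23.

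The course of the 7 genes through reprogramming was then described in WT cells. From MEF to D3, 6 of 7 genes passed, against 70.9% of all genes. Zfp266 fell from 2949 ± 136 to 1531 ± 99.9 normalised counts (mean ± SD, n = 3; log2FC -0.95, SE 0.08, FDR 1.04e-34, DESeq2). Zfp810 fell furthest, from 221, 285 and 274 to 41.3, 27.0 and 32.0 (log2FC -2.96, SE 0.23, FDR 9.67e-36). Zfp846 (log2FC -0.94, FDR 5.03e-10), Zfp26 (log2FC -0.69, FDR 5.42e-06) and Zfp426 (log2FC -0.36, FDR 7.96e-05) fell too. Zfp809 went the other way, from 529, 492 and 468 to 995, 1127 and 1198 (log2FC 1.16, SE 0.09, FDR 1.73e-35). Zfp560 did not pass (log2FC -0.29, FDR 0.371). The D3 cells were sorted for the transgene reporter and MEFs were not, so the sort and the stage cannot be told apart at this step.

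From D3 to D5 none of the 7 genes passed in WT cells, by DESeq2 or edgeR, and none had an unadjusted DESeq2 p under 0.05, against 25.1% of all genes. From D5 to D7 Zfp26 rose from 618, 609 and 612 to 909.8, 918 and 785 (log2FC 0.51, SE 0.15, FDR 0.00408, DESeq2) and Zfp810 from 30.1, 34.1 and 39.6 to 72.0, 64.4 and 54.5 (log2FC 0.88, SE 0.25, FDR 0.00338), against 24.1% of all genes. The other 5 did not pass, with log2FC between -0.06 (Zfp809) and 0.14 (Zfp426).

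From D7 to iPS cells the family split. Zfp846 rose from 117, 121 and 105 to 386, 314 and 387 (log2FC 1.67, SE 0.14, FDR 1.70e-33, DESeq2), Zfp810 from 72.0, 64.4 and 54.5 to 173, 180.0 and 121 (log2FC 1.31, SE 0.21, FDR 2.85e-09) and Zfp266 from 1437, 1432 and 1535 to 2529, 2817 and 2594 (log2FC 0.85, SE 0.08, FDR 1.44e-28). Zfp26 rose less (log2FC 0.34, FDR 0.0267), a call lost without D7 WT replicate 3 (log2FC 0.27, FDR 0.127), iPS WT replicate 1 (log2FC 0.30, FDR 0.0915) or iPS WT replicate 3 (log2FC 0.33, FDR 0.0594). Zfp426 fell from 574, 605 and 553 to 301, 341 and 261 (log2FC -0.94, SE 0.09, FDR 9.38e-26) and Zfp809 from 974, 1007 and 1059.7 to 751, 669 and 685 (log2FC -0.53, SE 0.09, FDR 2.60e-09). These 6 calls among 7 stand beside 73.5% of all genes. D7 cells were sorted populations grown with doxycycline, and iPS libraries were clones kept without it in puromycin. In both genotypes, doxycycline, cloning and selection cannot be told apart from the stage at this step. Zfp560 missed the threshold (log2FC -0.57, FDR 0.0627) and passed without D7 WT replicate 1 (log2FC -0.72, FDR 0.0367) or iPS WT replicate 1 (log2FC -1.02, FDR 0.00114).

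WT iPS cells and ESCs were not shown to differ in any of the 7 genes. Of them, 5 had an FDR and none passed, while Zfp560 and Zfp810 were left without one by DESeq2's filter on low means, and 3.2% of all genes passed. At an unadjusted p under 0.05 there were 3 (Zfp266, Zfp426 and Zfp810), and edgeR called none. Without iPS WT replicate 3, Zfp426 (log2FC -0.35, FDR 0.00982) and Zfp810 (log2FC -0.69, FDR 0.0177) passed as lower in ESCs.

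Set against MEFs, WT ESCs differed in all 7 genes, where 79.3% of all genes did. Zfp846 (log2FC 0.74, FDR 4.21e-08), Zfp809 (log2FC 0.47, FDR 1.46e-06) and Zfp26 (log2FC 0.32, FDR 0.0341) were higher in ESCs by DESeq2. Zfp426 (log2FC -1.26, FDR 7.40e-41), Zfp810 (log2FC -1.25, FDR 1.36e-09), Zfp560 (log2FC -0.80, FDR 0.00770) and Zfp266 (log2FC -0.32, FDR 3.55e-05) were lower. The Zfp26 call was lost when any 1 of the 6 libraries was left out (log2FC 0.29 to 0.34, FDR 0.0554 to 0.105) and the Zfp560 call without ESC WT replicate 3 (log2FC -0.65, FDR 0.0560).

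In order of level, WT Zfp266 was highest in MEFs, then in iPS cells, ESCs and the 3 days of reprogramming, among which the libraries overlapped. WT Zfp426 went from MEF and D7, which overlapped, through D5 and D3 to iPS cells and ESCs, which overlapped. WT Zfp26 was highest in iPS cells and ESCs, which overlapped, and lowest at D3, and WT Zfp846 likewise highest in iPS cells and ESCs, with D7, D3 and D5 overlapping at the bottom. WT Zfp809 was the one member lowest in MEFs and highest at D3, D5 and D7, which overlapped. WT Zfp560 was highest in MEFs, and its other stages overlapped from one to the next down to iPS cells. WT Zfp810 had the widest range, 7.78-fold from D3 to MEF, against 2.01-fold (Zfp560) to 3.46-fold (Zfp846) for the others.

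**Figure D3:**
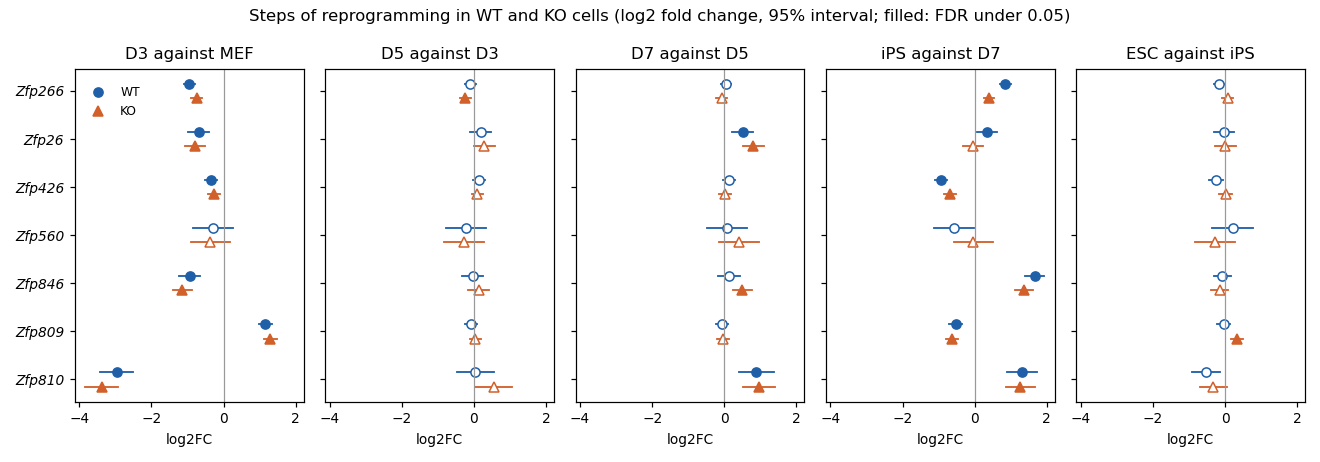
Log2 fold change from each stage to the next (x axis) in WT (blue circles) and KO cells (orange triangles) for the 7 genes, with 95% intervals and filled symbols at FDR < 0.05. The pair of symbols of a gene lies on the same side of 0 at the step from MEF to D3 for all 7 genes, with Zfp809 alone to the right.

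KO cells took the same steps with some differences in which genes passed. From MEF to D3 the same 6 genes passed in KO cells in the same directions, Zfp810 with -3.38 and Zfp809 with 1.29 on the log2 scale (71.4% of all genes called). Without MEF KO replicate 3, an alternative chosen after seeing the data, the same 6 passed, Zfp810 with -3.16, Zfp809 with 1.19 and Zfp26 with -0.45 in place of -0.79. Zfp266 fell from D3 to D5 in KO cells (log2FC -0.24, FDR 0.00838; 29.3% of all genes). From D5 to D7, Zfp26 (log2FC 0.81, FDR 1.72e-07), Zfp810 (log2FC 0.96, FDR 0.000167) and Zfp846 (log2FC 0.50, FDR 0.00137) rose (41.5% of all genes). From D7 to iPS cells 5 passed (68.9% of all genes), and Zfp26 had 1325, 1206 and 1165 at D7 and 1323, 1210.0 and 1035 in iPS clones (log2FC -0.05, FDR 0.766). From iPS cells to ESCs only Zfp809 passed (log2FC 0.34, FDR 0.00464; 6.45% of all genes). Against MEFs, KO ESCs differed in 5 genes (79.2% of all genes), with Zfp809 (log2FC 1.01, FDR 6.99e-28) and Zfp846 (log2FC 0.71, FDR 2.64e-08) higher and Zfp266 (log2FC -0.59, FDR 6.77e-15), Zfp426 (log2FC -0.82, FDR 2.01e-20) and Zfp810 (log2FC -0.93, FDR 3.06e-06) lower. Zfp26 did not pass (log2FC 0.27, FDR 0.0785), but was called higher without MEF KO replicate 3 (log2FC 0.61, FDR 2.03e-09). The other 5 calls held without that library. The WT and KO steps share no library, yet a step that passed in 1 genotype and not in the other is not shown to differ unless the interaction given above passed.

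At D7 the KO level of Zfp26 (1232 ± 83.4) stood beside 871 ± 74.6 in WT cells at the same day and 1101 ± 71.1 in WT iPS cells. For Zfp846 the corresponding means were 168 ± 7.62, 114 ± 8.23 and 362 ± 41.7. The KO libraries at D7 overlapped those of WT iPS cells for Zfp26 (1165 to 1325 and 1026 to 1167) and all lay below them for Zfp846.

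Levels were compared between genes per kb of merged exons. In WT MEFs Zfp266 was the most abundant with 419 ± 19.3 normalised counts per kb, ahead of Zfp809 with 168 ± 10.3 and Zfp426 with 124 ± 5.90. At D3, D5 and D7 Zfp809 stood first in both genotypes, with 374 ± 34.8 per kb at D3 in WT cells against 218 ± 14.2 for Zfp266. In WT iPS cells and ESCs Zfp266 stood first again on this scale (376 ± 21.4 and 336 ± 15.6) and Zfp809 second (237 ± 14.8 and 231 ± 7.76). In KO ESCs the means of the 2 genes lay within their SDs (311 ± 13.0 for Zfp809 and 302 ± 19.6 for Zfp266). Zfp846, Zfp560 and Zfp810 were lowest at every stage, and Zfp810 in WT cells at D3 was at 5.45 ± 1.18. When the longest transcript was used as length in place of merged exons, Zfp809 stood ahead of Zfp266 also in WT ESCs and KO iPS clones. On that scale Zfp810 stood ahead of Zfp26 in WT MEFs (80.2 and 77.1) and KO MEFs (94.4 and 88.4).

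**Figure D4:**
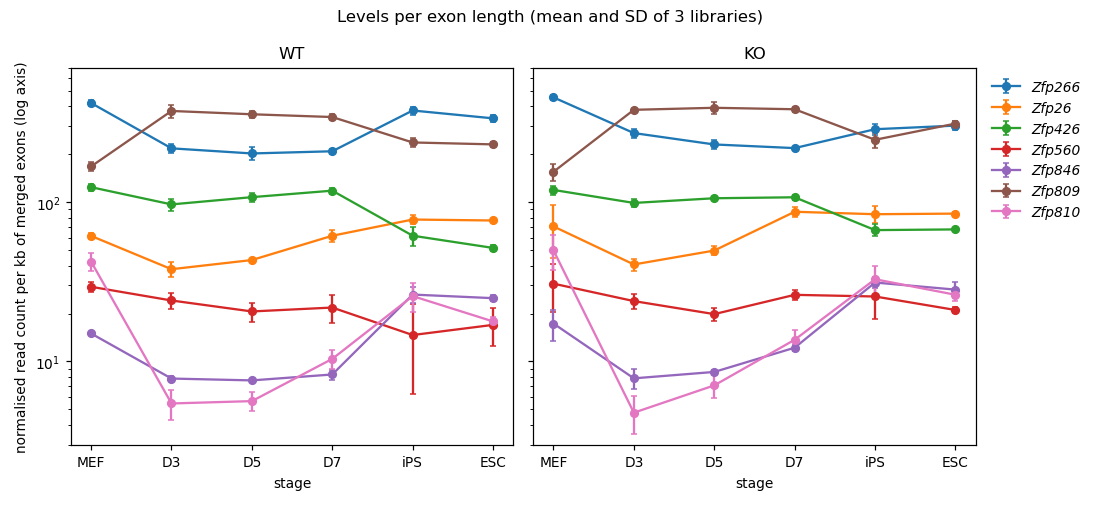
Normalised read count per kb of merged exons (log axis, mean and SD of 3 libraries) of the 7 genes at the 6 stages in WT (left) and KO cells (right). Zfp266 and Zfp809 are the 2 highest lines at every stage. They cross between MEF and D3 and again between D7 and iPS in both genotypes, and in KO cells their means also cross between iPS and ESC. Zfp810 drops to 5.45 per kb at D3 in WT cells.

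Profiles over the 12 group means (log2 of normalised count plus 1) were compared as a description, with no test, since the groups share stages and the genes share libraries. Among relatives Zfp810 was closest to Zfp266 (Pearson r 0.82, Spearman rho 0.78), followed by Zfp846 (0.65 and 0.69) and Zfp26 (0.42 and 0.35). Zfp560 (0.05 and 0.18) and Zfp426 (-0.23 and -0.10) had little likeness to it, and Zfp809 ran opposite (-0.92 and -0.77). Of 14636 genes with a mean of at least 50 normalised counts, Zfp810 ranked 837th by Pearson r. The 5 genes most like Zfp266 were Gm6733 (r = 0.97), Fchsd2 (0.96), Srpr (0.96), Oaz1-ps (0.96) and Sestd1 (0.96). Among the relatives the highest values were those of Zfp26 with Zfp846 (0.83) and of Zfp846 with Zfp810 (0.81).

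The machinery that KRAB zinc finger proteins act through was counted from a list of 12 corepressor genes. At D7, 9 were higher and 1 lower in KO cells (10 of 12, against 29.4% of all genes), with a median log2FC of 0.40 where the median of all genes was -0.04. Trim28, the common corepressor, rose from a mean of 12854 normalised counts to 18294 in KO cells (log2FC 0.51, SE 0.06, DESeq2 FDR 8.43e-14), and Setdb1, the histone methyltransferase it recruits, from 2521 to 3090 (log2FC 0.29, FDR 6.10e-06). Morc3 (log2FC 0.61), Cbx1, an HP1 protein (0.82), and Smarcad1, a chromatin remodeller (0.67), were the others with the lowest FDR. At D5, 7 of 12 were higher (58.3%, against 7.15% of all genes). In ESCs 3 were higher (25%, against 10.1%, median 0.06), in iPS clones 1 was lower (8.33%, against 16.3%, median -0.03), and in MEFs and at D3 none passed. In the same libraries the pluripotency markers moved, with 7 of 8 called higher at D5 and 8 of 8 at D7, and the part of cell state was not tested.

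Other KRAB zinc finger genes with a described target were read the same way, and 7 of the 8 listed were in the table. At D7, 4 of 7 were higher (57.1%, against 29.4% of all genes), in the libraries in which the pluripotency markers moved: Zfp961 (from a mean of 557 to 1156, log2FC 1.05, DESeq2 FDR 9.94e-18), Zfp819 (29.7 and 104, log2FC 1.81, FDR 3.39e-09), Zfp568 (3086 and 4233, log2FC 0.46, FDR 1.48e-06) and Zfp57, which protects imprinted marks (1480 and 3477, log2FC 1.23, FDR 2.32e-06). In ESCs 3 were higher (42.9%, against 10.1% of all genes), in iPS clones 1 was lower (14.3%, against 16.3%), at D5 3 were higher and 1 lower (57.1%, against 7.15%), and in MEFs and at D3 none passed. Of the 352 genes named Zfp and a number, 92 were higher and 32 lower at D7 (35.3% of those tested, against 29.4% of all genes), 26 and 5 in ESCs (9.04% against 10.1%), 22 and 18 in iPS clones (11.4% against 16.3%) and 21 and 2 at D5 (6.67% against 7.15%). The 7 genes are not in this list, and none of it passed in MEFs or at D3. The other genes with a zinc finger name between 1 Mb before the first and 1 Mb after the last of the 7 on chromosome 9 were Zfp317, Zfp599 and Zfp653. Zfp317 was higher in KO iPS clones (1078 and 1408, log2FC 0.39, FDR 0.000810) and Zfp599 at D7 (209.8 and 259, log2FC 0.31, FDR 0.0115), while Zfp653 passed nowhere.

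Within 500 kb of Zfp266, 16 genes that are no member were in the table, and 8 of them passed at 1 stage or more, as did 42.7% of all genes. None passed in MEFs, at D3 or in ESCs. At D7 Dnmt1, the maintenance DNA methyltransferase (8249 and 11225, log2FC 0.44, DESeq2 FDR 0.00839), S1pr2, a sphingosine phosphate receptor (212 and 328, log2FC 0.63, FDR 0.000257), and Shfl (7.09 and 19.3, log2FC 1.45, FDR 0.00308) were higher in KO cells. Olfm2 was lower (221 and 67.4, log2FC -1.71, FDR 7.05e-08). The WT mean of Shfl was not far above the 2.31 to 5.22 normalised counts that 3 reads make. Dnmt1 was also higher at D5 (log2FC 0.46, FDR 0.0229). In iPS clones the collagen gene Col5a3 was higher (97.0 and 253, log2FC 1.39, FDR 0.000233), and Ubl5 (log2FC -0.29, FDR 0.00655), Ppan (-0.26, FDR 0.0146) and Mrpl4 (-0.19, FDR 0.0475) were lower. The share of neighbours called was 25% at D7 and 25% in iPS clones, against 29.4% and 16.3% of all genes, and the median log2FC of the 16 was between -0.06 and 0.04 at every stage.

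**Figure D5:**
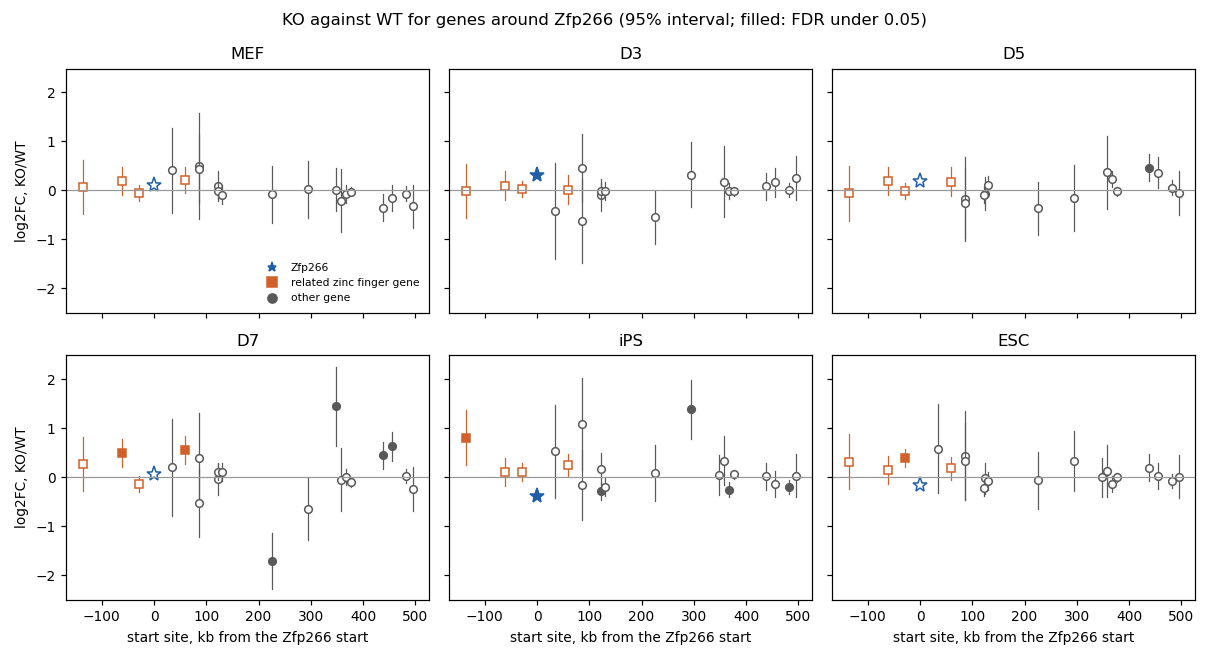
Log2 fold change of KO over WT (y axis, 95% interval, filled at FDR < 0.05) against the distance of the start site from that of Zfp266 in kb (x axis) for Zfp266 (star), the relatives within 500 kb (squares) and other genes (circles), at the 6 stages. Genes with a mean at or under 5.22 normalised counts in either group are not drawn. The filled symbols lie on both sides of 0 and at no fixed distance.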

How the data were processed

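RNA was sequenced as single-end reads of 75 bases with a stranded kit. The authors aligned the reads to GRCm38 (STAR, per the submitters' processing notes), counted them per gene with Rsubread and deposited raw counts and, beside them, counts divided by DESeq2 size factors (a normalised signal, in which 1 count is worth more in a shallower library). The counting strand setting is not given in the sources used here. Dividing the deposited counts by size factors recomputed here gave the deposited normalised signal to a relative difference of 4.98e-15. Every sample column was mapped to a label.

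Counts of 21442 genes in 36 libraries were fitted with DESeq2 1.42.0 in R 4.3.3 as 1 factor of 12 groups, with Wald tests, default independent filtering and Benjamini-Hochberg FDR over all genes tested (threshold 0.05). A DEG also needed a log2FC over 1 in size. Each comparison is a contrast of this fit, and p-values are two-sided. An alternative fit used the edgeR 4.0.16 quasi-likelihood test with TMM. Others were TMM size factors in DESeq2, a filter of at least 10 counts in 3 libraries, only the libraries compared, a replicate block, and each library left out in turn. The scripts were tested on simulated data. A count of 3 reads corresponds to 2.31 to 5.22 normalised counts, depending on the library. Variance among replicates was 3.37 to 119.9 times that of counting alone, as a summary over genes for each pair of replicates. This ratio was not computed for single members, so counting error is not shown to be the smaller part for them. Their spread differed widely between groups. The SD was 1.73 at a mean of 104.8 for Zfp846 (WT, D5) and 42.7 at a mean of 74.7 for Zfp560 (WT, iPS). Dates of library preparation are mentioned by the study but not given per library, so no within-batch values could be made.

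The genes named are the 7 members at every comparison, the 5 genes most like Zfp266 in profile, up to 4 genes with the lowest FDR of the corepressor (with Trim28 and Setdb1), KRAB and chromosome 9 lists, and the called neighbours within 500 kb. The members and lists were chosen with earlier results of these data known. Positions and sequences are from GENCODE vM21 transcripts on GRCm38, to which 21390 of 21442 gene IDs matched. The finger pattern was C2H2 with the usual spacing in the translated coding sequence, and guides were searched on both strands of transcripts.

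Replicate numbers were checked for pairing by correlating the deviations of same-numbered WT and KO libraries from their group means. All 3 correlations were over 0.1 at D3 (0.10 to 0.46) and D7 (0.17 to 0.39), and not at the other stages. At D5 they were 0.09 to 0.27, still above those of libraries with unlike numbers (-0.23 to 0.02). At D3 the correlation of WT replicate 2 with KO replicate 3 (0.13) was above that with KO replicate 2 (0.10).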

Additional observations from a re-analysis of the deposited data

Results flagged for a closer look

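The KO effect on Zfp266 mRNA differed between iPS clones and D7, by the interaction term of the DESeq2 fit (log2 difference -0.46, SE 0.11, FDR 0.000309). All 3 KO iPS libraries were below all 3 WT libraries, while at D7 the genotypes overlapped. It passed in all 17 alternatives tried. KO cells at D7 were sorted populations and KO iPS libraries were clones, and the part of this difference in the result was not tested.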

How the results depend on the processing

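Counts of members past FDR 0.05 moved as follows. With edgeR the count fell from 1 to 0 at D3 and from 2 to 1 in iPS clones, and with only the libraries compared it was 1 in iPS clones, 3 in place of 2 at D7 (Zfp809 added) and in ESCs (Zfp810 added), and 4 in place of 3 for the mean of D3, D5 and D7 (Zfp809 added). For the difference of KO effects between D7 and D3 it went from 0 to 1 with TMM size factors and to 1 with only the libraries compared. With 1 library left out, counts ranged from 0 to 1 at D3, 1 to 2 in iPS clones, 2 to 4 for the mean of D3, D5 and D7, 5 to 7 for WT iPS against D7, 5 to 6 for WT ESC against MEF, 0 to 2 for WT ESC against iPS, 0 to 1 for the difference of KO effects between D7 and D3, 1 to 2 between iPS and D7, and 0 to 1 between ESC and iPS. At D7 and in ESCs the count was 2 in every such fit. Without MEF KO replicate 3, chosen after seeing the data, the counts for the KO steps from MEF were 6 (D3, as before) and 6 in place of 5 (ESC). Where 2 libraries remain in a group, they are assumed to vary like the other groups.

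With replicate number as a block the count in ESCs was 3 in place of 2, through Zfp810 (FDR 0.0339), and the block changed no other call. The deviations of libraries with the same number correlated positively at D3, D5 and D7, and not as a set at the other stages. At D3 the match by number did not hold for every replicate, since WT replicate 2 was closer to KO replicate 3 than to KO replicate 2.

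The sign of log2FC changed in 33 fits with 1 library left out, over 19 results, none of them called in any of those fits. The cause was not tested. Lowest and highest log2FC over these fits follow. For KO against WT in MEF these were Zfp26 -0.14 to 0.36 and Zfp560 -0.24 to 0.23. For KO against WT in D3 these were Zfp809 -0.048 to 0.085, Zfp560 -0.078 to 0.083, Zfp426 -0.027 to 0.099, Zfp846 -0.12 to 0.071 and Zfp810 -0.34 to 0.0073. For KO against WT in D5 these were Zfp426 -0.075 to 0.014 and Zfp560 -0.16 to 0.016. For KO against WT in iPS these were Zfp809 -0.037 to 0.11. For WT, D5 against D3 these were Zfp810 -0.090 to 0.23. For WT, D7 against D5 these were Zfp266 -0.032 to 0.097 and Zfp560 -0.075 to 0.22. For WT, ESC against iPS these were Zfp26 -0.069 to 0.025, Zfp809 -0.074 to 0.014 and Zfp560 -0.18 to 0.66. For difference of KO effects, iPS against D7 these were Zfp810 -0.22 to 0.081. For difference of KO effects, ESC against iPS these were Zfp26 -0.059 to 0.12 and Zfp846 -0.15 to 0.021.

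Low counts limit Zfp560 and Zfp810, with as few as 34 and 21 reads in a library.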
